A study of Mus musculus with 2 samples.

Results

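The 9 myelin genes Mbp, Mog, Mag, Mobp, Ugt8a, Cnp, Cldn11, Opalin and Mal were taken by symbol from the 55357 genes counted in single nuclei of mouse hippocampus, and all 9 were found in both libraries. Their levels were followed along oligodendrocyte precursor-like, newly formed oligodendrocyte-like and mature oligodendrocyte-like nuclei and in nuclei of other marker-defined classes. The series, whose title names Bcas2 (a component of a splicing complex), adult neurogenesis and Alzheimer's disease, holds 2 libraries, 1 per group. The library labelled knockdown came from Bcas2F/F mice, which carry loxP sites around Bcas2, given AAV2/9 with Cre driven by the neuronal synapsin promoter (Syn). The control library came from Bcas2F/F mice given the AAV vehicle. The floxed allele is thus in the titles of both, while the genotype label of the control reads WT, a conflict that nothing in the labels resolves. The number, age and sex of the mice behind each library are not stated in the sources used here. The synapsin promoter is used to drive expression in neurons.

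Oligodendrocytes wrap axons in myelin, a stack of membrane layers that insulates them and speeds conduction. Precursor cells divide and differentiate into newly formed oligodendrocytes, which switch on myelin genes, and these become mature cells that keep the sheath. Mbp encodes myelin basic protein, which holds the cytoplasmic faces of compact myelin together, and Mobp encodes another protein of compact myelin. Mal and Cldn11 encode membrane proteins, of which Cldn11 forms the tight junctions of the sheath. Mog lies on the outer face of the sheath, Mag on its inner face toward the axon, and Opalin is a transmembrane glycoprotein of oligodendrocytes. Cnp is an enzyme of the cytoplasm-filled parts of myelin, and Ugt8a makes galactosylceramide, a major myelin lipid.

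The library labelled knockdown held 16693 barcodes with 90594923 UMIs (unique molecular identifiers), and the control held 12621 barcodes with 41781481 UMIs. They shared 56 barcodes. After filters and doublet removal 12317 nuclei were kept in the library labelled knockdown (median 5792 UMIs) and 11162 in the control (median 2482 UMIs). The lineage held 331 and 664 precursor-like nuclei, 50 and 95 newly formed-like nuclei, and 2060 and 7006 mature-like nuclei in the library labelled knockdown and the control. The targeted gene Bcas2 had 33.5 CPM (UMIs of the gene, scaled to a common total for each class) in dentate gyrus (DG) granule-like neurons of the library labelled knockdown, against 34.4 CPM in the control (log2 ratio -0.04, 95% counting interval -0.31 to 0.25). It had 50.7 CPM in mature-like nuclei of the library labelled knockdown, against 31.9 CPM in the control (log2 ratio 0.67, 0.44 to 0.90). Which part of Bcas2 the loxP sites enclose is not stated, and a 3' tag outside that part checks nothing, so every direction between the libraries rests on the label. With 1 library per group no test was possible: all intervals are 95% intervals that cover counting error only, and a member was called higher or lower at a fold of 1.5.

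The stages were named from fixed lists of markers, which did not include the members. Each cluster of the lineage took the stage whose markers were highest in it on average. The counts that follow thus describe the naming and do not test it. In the library labelled knockdown 9 of 9 precursor markers, 8 of 10 markers of newly formed cells and 13 of 15 mature markers were highest in the stage they name, and in the control the counts were 8 of 9, 8 of 10 and 14 of 15. The members and other myelin genes were left out of the genes used for clustering, so that the stages were not drawn by them. The libraries separated among mature-like nuclei: 1 cluster held 2031 of the 2060 mature-like nuclei of the library labelled knockdown with 16 of the control, and the other 4 held nearly all of the control's. The genes that led that first cluster were neuron RNAs such as Meg3, Snap25 and Syt1.

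All 9 myelin genes were at least 1.5-fold higher in newly formed-like and in mature-like nuclei than in precursor-like nuclei, in both libraries. In the library labelled knockdown, precursor-like nuclei held 20 UMIs of Mog, 13 of Mobp, 25 of Cnp, 29 of Cldn11 and 3 of Opalin. In the control they held 47 UMIs of Opalin. These members reached the 50 UMIs needed to be measured only through the stage where they were high. The 1.5-fold mark was passed upward by 20.6% of all genes measured for mature over precursor in the library labelled knockdown and by 20.3% in the control, and by 16.1% and 15.7% for newly formed over precursor. It was passed downward by 21.0% and 30.1% of all genes for mature over precursor and by 35.3% and 29.2% for newly formed over precursor, and by 0 members. The median log2 ratio of the members for mature over precursor was 4.17 in the library labelled knockdown, beside 0.02 over all genes, and 3.05 in the control, beside -0.10. Their summed level was 367 CPM in precursor-like, 14387 CPM in newly formed-like and 9712 CPM in mature-like nuclei of the library labelled knockdown. In the control it was 1174, 12273 and 13216 CPM.

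Among the proteins of compact myelin, Mbp had 83.0 CPM in precursor-like, 7342 CPM in newly formed-like and 4304 CPM in mature-like nuclei of the library labelled knockdown, and 299, 6461 and 5954 CPM in the control. Mobp had 12.7, 1744 and 1233 CPM along the same stages in the library labelled knockdown, and 115, 1432 and 1501 CPM in the control. Mal had 68.4, 1196 and 1008 CPM in the library labelled knockdown, and 166, 702 and 1098 CPM in the control. Mbp and Mobp were thus already near or above their mature level in the newly formed-like class of either library, and so was Mal in the library labelled knockdown. In the control Mal was still below its mature level by more than 1.5-fold.

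The surface and junction proteins followed the same course. Mog had 19.5, 1332 and 1227 CPM in precursor-like, newly formed-like and mature-like nuclei of the library labelled knockdown, and 85.7, 934 and 1440 CPM in the control. Mag had 49.8, 1244 and 903 CPM in the library labelled knockdown, and 177, 1210 and 1471 CPM in the control. Cldn11 had 28.3, 504 and 383 CPM in the library labelled knockdown, and 96.4, 421 and 553 CPM in the control. Their point values in newly formed-like nuclei were above the mature ones in the library labelled knockdown, where the interval of the difference held 0 for Mog, and below them in the control. Opalin had 2.93 CPM (3 UMIs), 260 and 113 CPM along the stages in the library labelled knockdown, and 17.4, 247 and 176 CPM in the control, so that it was lower in mature-like than in newly formed-like nuclei of both.

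The enzymes showed the smallest folds from precursor to mature. Ugt8a had 78.1, 476 and 298 CPM in the library labelled knockdown, a 3.81-fold rise from precursor-like to mature-like nuclei (3.04 to 4.84), and 145, 485 and 645 CPM in the control, a 4.43-fold rise (4.01 to 4.91). Cnp had 24.4, 288 and 243 CPM in the library labelled knockdown, a 9.94-fold rise (6.69 to 15.4), and 72.7, 381 and 378 CPM in the control, a 5.20-fold rise (4.51 to 6.02). In both libraries Ugt8a had the lowest mature over precursor ratio of the 9 genes and Cnp the next lowest. These folds rest on precursor-like levels that for most members were near those of astrocyte-like nuclei, as given below. With the level in DG granule-like nuclei subtracted, Cnp was at a log2 ratio of 4.00 in the control and Mal at 3.94. Cnp was then no longer next lowest there, while Ugt8a stayed lowest at 2.62. The highest such ratio was that of Mobp in the library labelled knockdown, 97.1-fold (56.7 to 182), and that of Mbp in the control, 19.9-fold (18.6 to 21.4).

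**Figure D1:**
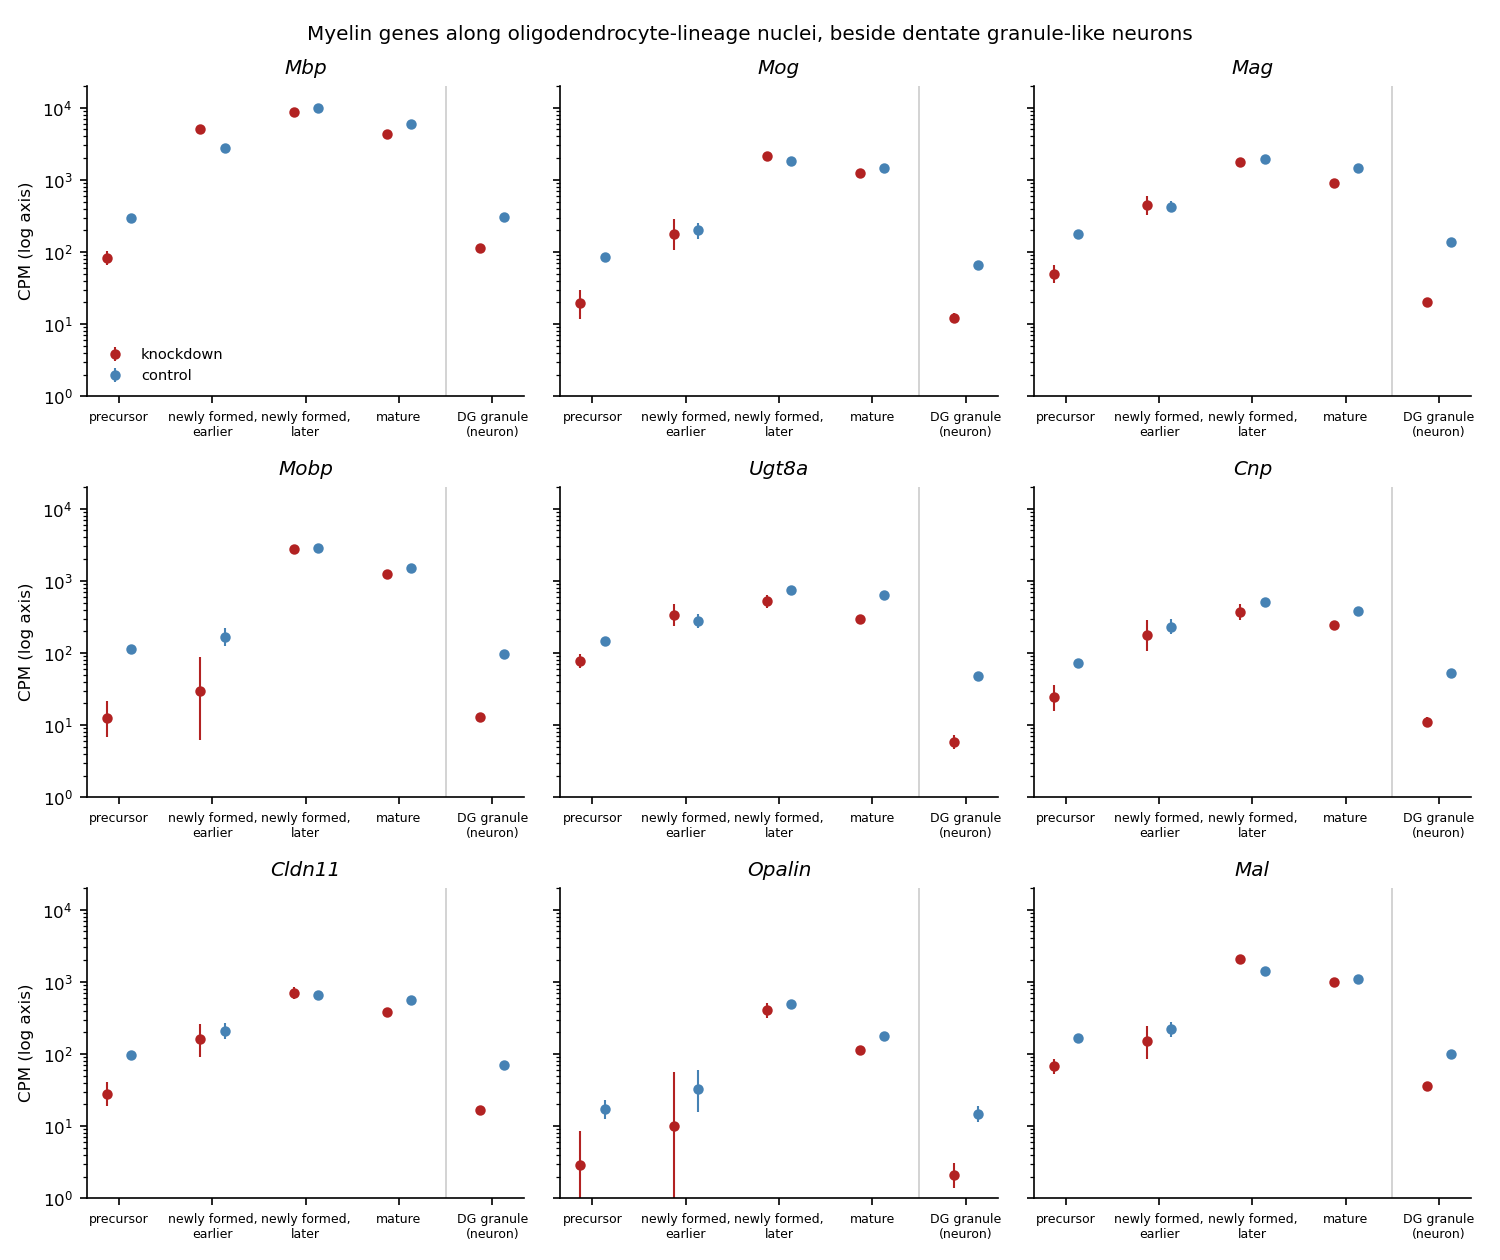
Level of each of the 9 myelin genes in CPM (log axis) in precursor-like, earlier and later newly formed-like and mature-like nuclei, with dentate granule-like neurons at the right, for the library labelled knockdown (red) and the control (blue); bars are 95% Poisson counting intervals, cut at 1 CPM. All 9 genes lie higher in later newly formed-like than in precursor-like nuclei, and in precursor-like nuclei all 9 knockdown points lie below the control points.

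The members that move together along the lineage were set beside their promoters, taken from RefSeq on GRCm38.p6, a different build from the GRCm39 of the deposited counts. Windows were matched by symbol for 8 of the 9 genes, all but Mbp. Both strands of 32851 windows of 300 bases around gene starts (250 before, 50 after) were searched for CTGGCAC, a core bound by MYRF, the transcription factor that drives myelin genes, for ACAAAG and ACAATG, cores bound by SOX factors such as SOX10, and for CACCTG, an E-box. CTGGCAC was in the windows of 3 of 8 members (Cnp, Mag and Opalin) and in 5.01% of all windows. ACAAAG was in those of 4 of 8 (Cnp, Mag, Mobp and Opalin) and in 18.7% of all windows. ACAATG was in 0 of 8 and 12.6%, and CACCTG in 3 of 8 (Cnp, Mag and Ugt8a) and 20.2%. A member was counted with a match in any of its windows, while the percentages are per window. By window the members had CTGGCAC in 4 of 10, ACAAAG in 5 of 10, ACAATG in 0 of 10 and CACCTG in 3 of 10. Mag had several windows. Those at chr7:30914864-30915113 and chr7:30914923-30915172 overlap and hold the same CTGGCAC and CTTTGT, so each site was counted in more than 1 window. The Mag window at chr7:30914322-30914571 held no MYRF or SOX core in its 250 bases. A match says only that the letters are there. The 250 bases before the start are printed for the 4 members with a SOX core, 5' to 3' on the strand of the gene, and the capitals mark CTGGCAC and ACAAAG or their reverse complements, GTGCCAG and CTTTGT.
Mag (chr7:30914864-30915113, minus strand; 1 MYRF core and 1 SOX core): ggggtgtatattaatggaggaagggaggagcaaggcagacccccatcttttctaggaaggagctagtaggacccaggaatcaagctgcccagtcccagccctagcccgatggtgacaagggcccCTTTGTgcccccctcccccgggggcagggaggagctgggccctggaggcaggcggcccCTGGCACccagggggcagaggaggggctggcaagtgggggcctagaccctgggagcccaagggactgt
Cnp (chr11:100574689-100574938, plus strand; 1 MYRF core and 1 SOX core): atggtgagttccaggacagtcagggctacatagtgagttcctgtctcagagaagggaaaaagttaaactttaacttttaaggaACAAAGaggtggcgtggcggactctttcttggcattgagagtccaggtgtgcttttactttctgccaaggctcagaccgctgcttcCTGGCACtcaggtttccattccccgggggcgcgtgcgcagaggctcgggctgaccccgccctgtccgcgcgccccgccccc
Mobp (chr9:120149492-120149741, plus strand; 6 SOX cores): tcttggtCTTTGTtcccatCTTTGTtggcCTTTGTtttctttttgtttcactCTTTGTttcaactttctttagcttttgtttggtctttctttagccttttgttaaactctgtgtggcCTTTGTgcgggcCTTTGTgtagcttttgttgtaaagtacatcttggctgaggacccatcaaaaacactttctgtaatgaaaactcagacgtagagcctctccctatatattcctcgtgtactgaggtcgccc
Opalin (chr19:41077114-41077363, minus strand; 1 SOX core): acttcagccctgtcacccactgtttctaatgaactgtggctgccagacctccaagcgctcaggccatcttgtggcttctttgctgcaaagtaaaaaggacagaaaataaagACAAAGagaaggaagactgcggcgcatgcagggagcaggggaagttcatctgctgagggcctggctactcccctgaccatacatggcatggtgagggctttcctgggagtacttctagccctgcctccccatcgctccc

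From newly formed-like to mature-like nuclei the course of the members depended on the library. In the library labelled knockdown 0 of 9 were higher in mature-like nuclei (31.6% of all genes were) and 3 were lower (14.7% of all genes): Opalin (log2 ratio -1.20), Mbp (-0.77) and Ugt8a (-0.68). In the control 2 were higher (21.6% of all genes), Mal (0.64) and Mog (0.62), and 0 were lower (22.0%). The median log2 ratio of the members was -0.47 in the library labelled knockdown, beside 0.20 over all genes, and 0.28 in the control, beside -0.0021 over all genes. These counts turned with the filter on nuclei: with a looser one, 6 were higher and 0 lower in the library labelled knockdown and 9 were higher in the control. The newly formed-like class did not hold the same nuclei under that filter, as given below.

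The newly formed-like class itself held nuclei of unlike kinds, and its make-up differed between the libraries. At a finer clustering it split into an earlier and a later set, a split described after its values were seen. Earlier nuclei carried markers of newly formed cells together with some of precursors. Bcas1, a marker of early myelinating cells, had 4954 CPM in the library labelled knockdown and 5415 CPM in the control. Bmp4 had 510 and 674 CPM there and had 0 UMIs in the later set of both, which allows up to 17.5 CPM in the library labelled knockdown and 7.62 CPM in the control. The precursor markers Tnr, with 5014 CPM in the library labelled knockdown and 6228 CPM in the control, and Sox6, with 1551 and 2446 CPM, were above their precursor-like levels of 2702 and 3004 CPM and of 1205 and 1431 CPM, while Pdgfra had 0 and 38.7 CPM. In the later set the markers of newly formed cells divided. The transcript 9630013A20Rik had 1713 CPM in the library labelled knockdown and 1580 CPM in the control there, against 5.14 and 8.22 CPM in mature-like nuclei. Enpp6, at 46.6 and 22.9 CPM, was below its mature-like levels of 72.4 and 124 CPM, and Bcas1 was at 507 and 452 CPM, against 339 and 604 CPM. Earlier nuclei were 20 of 50 (40.0%) newly formed-like nuclei in the library labelled knockdown and 55 of 95 (57.9%) in the control. The later set also took 8 and 25 nuclei of the mature-like class, giving 38 and 65 nuclei. With the looser filter on nuclei, a newly formed-like set of 74 nuclei shared 72 with the earlier set. The part of this in the counts under that filter was not tested.

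The myelin genes did not all come on together between these sets. In the earlier set Mbp was already 62.0-fold above its precursor level in the library labelled knockdown (49.2 to 78.9) and 9.38-fold above it in the control (8.51 to 10.3), at 5144 and 2801 CPM. Mobp, in contrast, had 30.0 CPM in earlier nuclei of the library labelled knockdown (3 UMIs, 6.19 to 87.7) and 168 CPM in the control (125 to 220), near its precursor levels of 12.7 and 115 CPM. Opalin had 1 UMI there in the library labelled knockdown and 10 UMIs (32.3 CPM) in the control. In the control 7 of 9 members were higher in earlier than in precursor-like nuclei (17.9% of all genes were) and 0 were lower (26.8%), and the other two were Mobp (log2 ratio 0.55, 0.09 to 0.97) and Mal (0.40, 0.01 to 0.77). In the library labelled knockdown 4 members had the 50 UMIs needed to be measured, and all 4 (Mbp, Mag, Ugt8a and Mal) were higher (17.4%) and 0 lower (34.8%).

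From the earlier to the later set all 9 members rose in both libraries, a step that 32.1% of all genes made upward in the library labelled knockdown and 23.1% in the control, with 28.5% and 31.3% moving downward. The folds were far from equal. Mobp was at 2790 CPM in later nuclei of the library labelled knockdown and 2828 CPM in the control, a 92.9-fold step (31.6 to 452) and a 16.9-fold step (12.8 to 22.7) over earlier nuclei. Opalin reached 402 and 493 CPM, with ratios to earlier nuclei of 40.2 (6.97 to 1609) in the library labelled knockdown and 15.3 (8.13 to 32.4) in the control. Mog rose 11.9-fold (7.42 to 20.3) in the library labelled knockdown and 9.14-fold (7.05 to 12.1) in the control. Mbp rose 1.67-fold (1.51 to 1.85) and 3.52-fold (3.27 to 3.79), and Ugt8a 1.54-fold (1.03 to 2.36) and 2.64-fold (2.07 to 3.40). Mobp and Opalin had the largest point values of this step in both libraries. In the library labelled knockdown Mbp had 514 UMIs in the earlier set, and each other member had under 50. Those members reached the 50 UMIs needed only through the later set, as did Opalin in the control. The interval of Opalin in the library labelled knockdown held the 14.0-fold step of Mal (8.38 to 25.3). Ugt8a was among the 3 smallest steps in both libraries, and Mbp in the library labelled knockdown. Neuron RNA, summed over 8 neuron genes, was 2442 and 691 CPM in earlier nuclei and 2406 and 371 CPM in later nuclei of the library labelled knockdown and the control.

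In both libraries the point value of all 9 genes was higher in the later set, whose markers of newly formed cells were mixed as given above, than in precursor-like, earlier or mature-like nuclei. Their summed level there was 19405 CPM in the library labelled knockdown and 20234 CPM in the control. The later set rests on 1 clustering. With the libraries centred before clustering, the newly formed-like cluster beside the earlier one held 56 and 322 nuclei. In the library labelled knockdown 9 of 9 members were lower in mature-like than in later newly formed-like nuclei (14.7% of all genes were), and in the control 3 of 9 were (16.3%), with 0 higher in either (32.7% and 27.1%): Opalin at 176 against 493 CPM, Mobp at 1501 against 2828 CPM and Mbp at 5954 against 9853 CPM. Opalin had the lowest such ratio in both libraries, 0.28-fold (0.22 to 0.37) in the library labelled knockdown and 0.36-fold (0.31 to 0.42) in the control. These sums are shares of each nucleus's RNA, and median UMIs per nucleus were 4275 and 5328 in later and 1962 and 2313 in mature-like nuclei.

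Between the libraries, 4 of the 9 myelin genes were at least 1.5-fold lower in mature-like nuclei of the library labelled knockdown and 5 were within that mark. Of all genes 7.40% passed it downward, and 25.0% passed it upward, as 0 members did. The median log2 ratio of the members was -0.53, beside 0.15 over all genes, whose 10th to 90th percentile ran from -0.48 to 1.45. Ugt8a had the lowest ratio, with 298 CPM in the library labelled knockdown and 645 CPM in the control (log2 ratio -1.11, -1.20 to -1.03). Mag followed at -0.70 (-0.75 to -0.66), Cnp at -0.64 (-0.74 to -0.55) and Opalin at -0.64 (-0.78 to -0.50). Cldn11 (-0.53), Mbp (-0.47), Mobp (-0.28), Mog (-0.23) and Mal (-0.12, -0.17 to -0.08) were within 1.5-fold, with intervals below 0.

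Neuron RNA moved the other way in the same nuclei. The summed level of 8 neuron genes was 4597 CPM in mature-like nuclei of the library labelled knockdown and 402 CPM in the control, and Syt1, a synaptic vesicle protein of neurons, had 602 and 54.1 CPM. All 10 GABAergic neuron markers were detected in the mature-like nuclei of either library, with summed levels of 259 and 48.3 CPM. All 7 DG granule markers were detected too, with 652 and 831 CPM, a sum that was lower in the library labelled knockdown. The largest part of that sum was Stxbp6, at 289 and 502 CPM, while C1ql2 had 25.9 and 6.5 CPM. Whether the DG granule markers there came from neurons was not tested. A level in CPM is a share of all RNA counted in a nucleus. An assumed share of free RNA in the droplet was set from those 8 genes at 20.03% and 7.60% of the RNA. It was given the make-up of all kept nuclei of each library, which held 796 CPM of the 9 members in the library labelled knockdown and 7444 CPM in the control. This share was taken out of gene and total, an alternative chosen after seeing the data. Ugt8a then stayed lower at -0.87, Mag was at -0.46 and Mbp at -0.22, while Mobp was at -0.03, Mog at 0.02 and Mal at 0.12. TMM scaling, which centres on the bulk of genes, moved the median over all genes by -0.25, which placed it at -0.10, and left 0 members higher and 6 lower (15.7% of all genes lower), with every member lower by the same step. Mog and Mal thus turned direction with that share removed, and the other 7 did not under it or under TMM. Scaled to the summed UMIs of the 9 genes, also chosen after seeing the data, every ratio was shifted by their summed ratio of -0.44, so that some had to turn positive and only the order can be read. On that scale Ugt8a was at -0.67, Cldn11 at -0.09, Mbp at -0.02, Mobp at 0.16, Mog at 0.21 and Mal at 0.32. The part of neuron RNA in these differences beyond that was not tested. At 1000 UMIs drawn per nucleus, 23.1% of 2048 mature-like nuclei of the library labelled knockdown and 44.2% of 6993 in the control had a UMI of Ugt8a (41.3% and 72.2% with all UMIs).

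The difference in mature-like nuclei was not that of a single cluster. With the libraries centred before clustering, 5 mature-like clusters held at least 50 nuclei of each library. Ugt8a was lower in the library labelled knockdown in 5 of 5 (log2 ratios -1.31 to -0.82), Mag in 5 of 5 (-0.77 to -0.62), Cnp in 5 of 5 (-0.77 to -0.62) and Mbp in 5 of 5 (-0.57 to -0.21). Mog, Mobp, Cldn11 and Opalin were also lower in 5 of 5, with the interval of Opalin reaching 0 in 1 of them. Mal was lower in 3 of 5 (-0.37 to 0.10). Both libraries held nuclei of both sexes by their sex chromosome transcripts. In male mature-like nuclei (669 and 1930) Ugt8a was at -0.88 and Opalin at -0.18, and in female ones (587 and 2961) they were at -1.32 and -1.20.

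In newly formed-like nuclei the picture differed: 1 of 9 members was higher in the library labelled knockdown (7.72% of all genes were) and 0 were lower (14.1%). The one was Mal, with 1196 CPM in the library labelled knockdown and 702 CPM in the control (log2 ratio 0.77, 0.55 to 0.99), and its direction turned with the looser filter (-0.49) and at clustering resolution 0.5 (-1.44). Under the looser filter the class did not hold the same nuclei, as given above. Mog was at 0.51 (0.31 to 0.71), Mobp at 0.28 (0.11 to 0.45) and Mbp at 0.18 (0.10 to 0.27), and the intervals of Mag, Ugt8a, Cldn11 and Opalin held 0. Cnp went the other way at -0.40 (72 UMIs in the library labelled knockdown and 221 in the control). It stayed below 0 under the 14 alternatives run for it, from -0.573 to -0.025. Later nuclei were a larger share of the class in the library labelled knockdown than in the control, as the counts above give, and the sets were compared on their own. In later nuclei Mal stayed the 1 higher member at 0.59 (0.40 to 0.79; 9.54% of all genes were higher) and 0 were lower (11.9%), with Mbp at -0.19 and Mobp at -0.02. In earlier nuclei Mbp was the 1 higher of 8 measured members at 0.88 (0.72 to 1.04; 11.2%) and Mobp the 1 lower at -2.48 (-4.81 to -0.86; 21.0%).

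**Figure D2:**
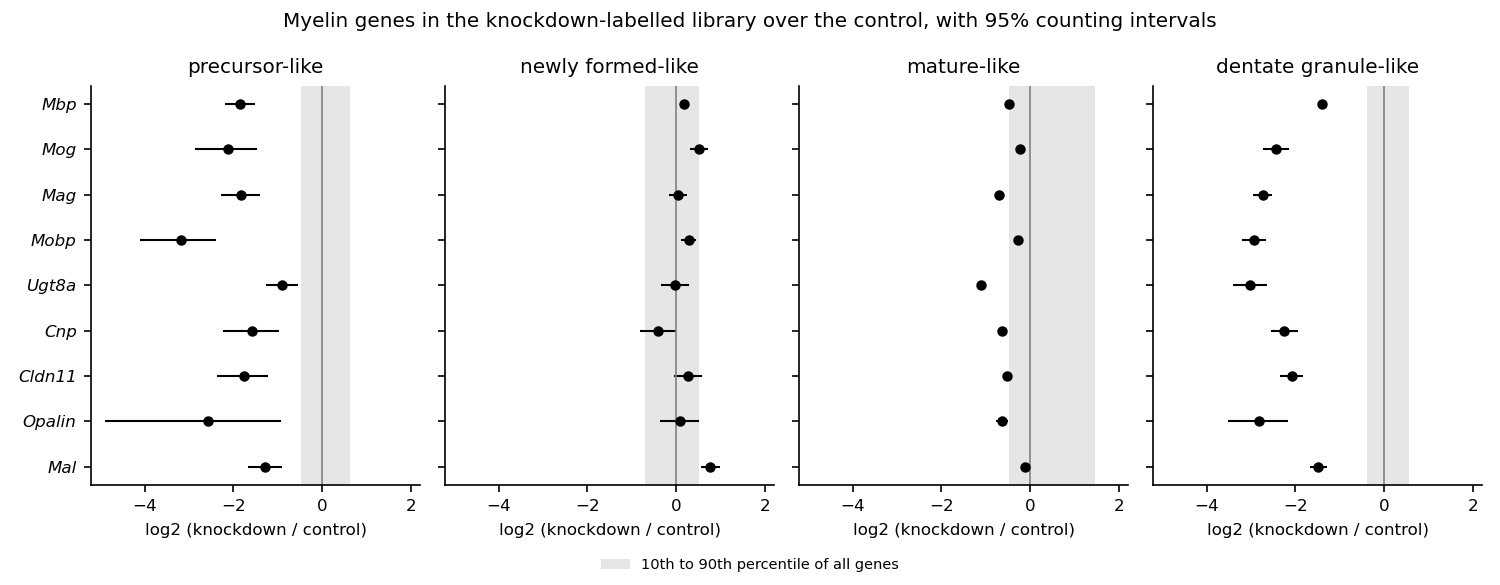
Log2 ratio of each myelin gene, library labelled knockdown over control, in precursor-like, newly formed-like, mature-like and dentate granule-like nuclei; bars are 95% counting intervals and the grey band is the 10th to 90th percentile of all genes. All ratios lie below the band in precursor-like and granule-like nuclei, between -1.11 and -0.12 in mature-like nuclei, and around 0 in newly formed-like nuclei, where Mal is at 0.77.

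In precursor-like nuclei all 9 members were lower in the library labelled knockdown (6.78% of all genes were, and 11.4% higher), with a median log2 ratio of -1.82 beside 0.02 over all genes. Mog, Mobp, Cnp, Cldn11 and Opalin had under 50 UMIs there in that library. They reached the 50 UMIs needed to be measured only with those of the control, Opalin with 3 and 47 UMIs. Ugt8a had the smallest difference at -0.90 (-1.26 to -0.55) and Mobp the largest at -3.18 (-4.10 to -2.38). In DG granule-like neurons, which make no myelin, all 9 were lower too (5.71% of all genes were, and 9.15% higher), with a median of -2.44 beside 0.05, and a summed level of 232 CPM in the library labelled knockdown and 888 CPM in the control. Over the 10 other classes with at least 30 nuclei in each library, 8 members were lower in the library labelled knockdown in 10 of 10 classes and Mal in 9 of 10. The mature-like nuclei that carry most of this RNA were 2060 of 12317 nuclei in the library labelled knockdown and 7006 of 11162 in the control.

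Outside the lineage the summed level ran from 172 CPM (GABAergic-like) to 1205 CPM (endothelial-like) in the library labelled knockdown and from 888 CPM (DG granule-like) to 3209 CPM (pericyte or smooth muscle-like) in the control. Mbp ran from 57.8 to 336 CPM in the library labelled knockdown and from 290 to 1196 CPM in the control. Mog ran from 12.2 to 110 CPM and from 66.4 to 335 CPM, Mag from 20.4 to 126 CPM and from 134 to 470 CPM, and Mobp from 12.8 to 126 CPM and from 98.1 to 436 CPM. In the library labelled knockdown Ugt8a had 0 UMIs in 1 of the 10 classes and Opalin in 3, and for both that included pericyte or smooth muscle-like nuclei, where 0 UMIs allow up to 49.1 CPM. The median over the 10 classes was 136 CPM for Mbp in the library labelled knockdown and 531 CPM in the control. Every one of these levels lay under that of mature-like nuclei of its own library. UMIs of myelin genes in these classes can come from free RNA in the droplet, and their part was not tested.

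**Figure D3:**
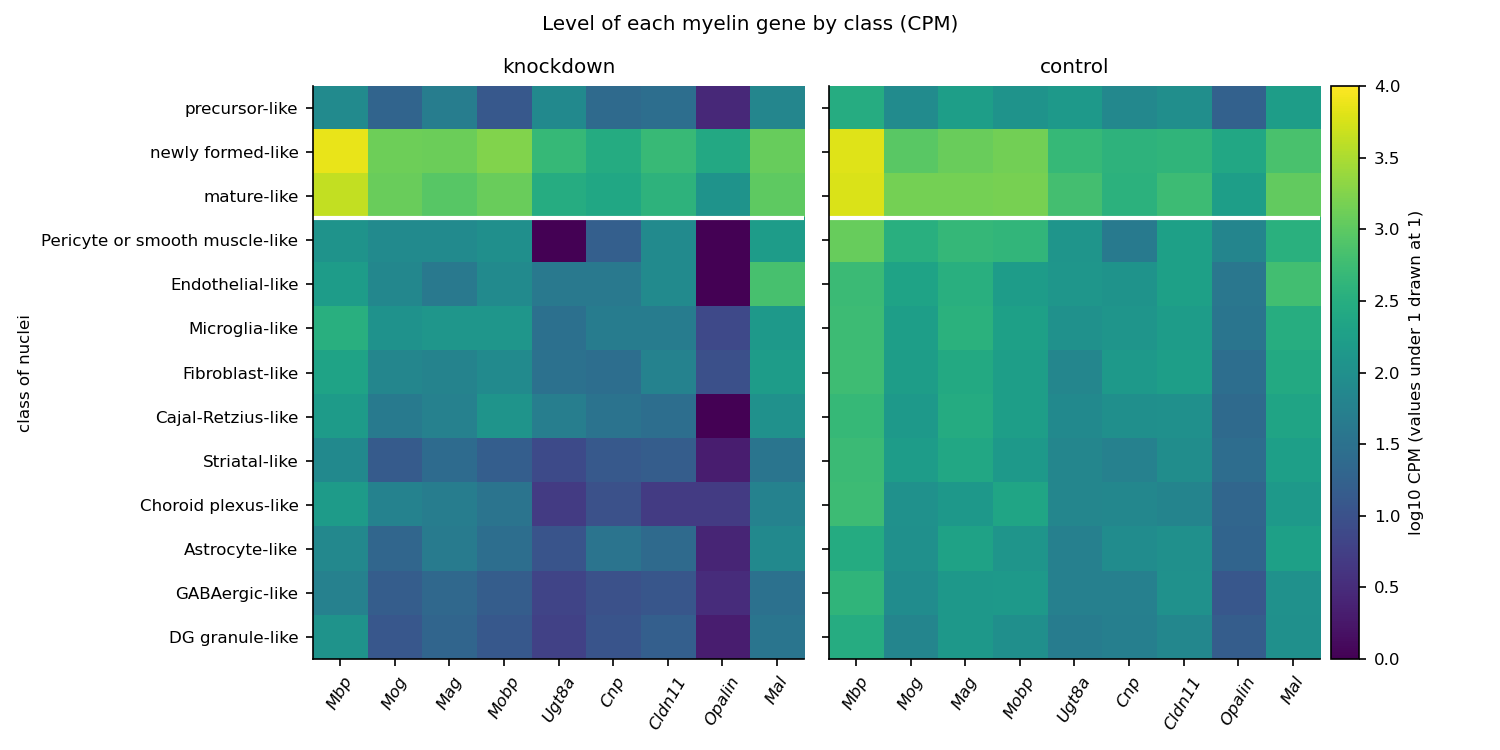
Heat map of the level of each myelin gene (columns, log10 CPM) in the 3 lineage stages (rows above the white line) and in 10 other classes with at least 30 nuclei in each library, for the library labelled knockdown (left) and the control (right). Newly formed-like and mature-like rows are the brightest in both, the rows below the line are darker in the library labelled knockdown, and Mal stands out in the endothelial-like row at 684 CPM in the library labelled knockdown and 621 CPM in the control.

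Precursor-like nuclei held most myelin RNAs at about the level of astrocyte-like nuclei, with Ugt8a as the exception. Against astrocyte-like nuclei, Ugt8a was the 1 member higher in precursor-like nuclei in both libraries: by a log2 ratio of 2.83 (2.06 to 3.68) in the library labelled knockdown, where 20.1% of all genes were higher, and by 1.38 (1.09 to 1.68) in the control, where 23.0% were. Its level was 78.1 CPM in precursor-like and 11.0 CPM in astrocyte-like nuclei of the library labelled knockdown, and 145 and 55.9 CPM in the control. In the library labelled knockdown 1 of 8 measured members was lower, Mobp at -1.13 (19.3% of all genes were), and in the control 0 of 9 (19.7%). The intervals of Mbp, Mog, Cnp and Cldn11 held 0 in both libraries. Ugt8a was detected in 21.1% of precursor-like nuclei of the library labelled knockdown (median 3032 UMIs), against 3.81% of DG granule-like nuclei (median 6295 UMIs), and in 40.8% of precursor-like nuclei of the control (median 3957.5 UMIs), against 26.9% (median 7215.5 UMIs). At 1000 UMIs per nucleus the shares were 7.27% of precursor-like and 0.693% of DG granule-like nuclei in the library labelled knockdown, and 15.2% and 4.43% in the control.

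Ugt8a also stood apart in the make-up of the myelin RNA, which does not rest on total UMIs. Ugt8a was 21.3% (17.3 to 25.8) of the summed UMIs of the 9 genes in precursor-like nuclei of the library labelled knockdown and 12.4% (11.3 to 13.6) in the control. In the 7 classes outside the lineage with at least 200 UMIs of the 9 genes in each library it was 2.35% to 4.39% in the library labelled knockdown and 3.73% to 6.92% in the control, and in mature-like nuclei 3.07% and 4.88%. Cnp was 3.95% to 10.7% and 3.46% to 7.67% of the sum in those 7 classes, above its 2.50% and 2.86% in mature-like nuclei. Cldn11 likewise was 4.85% to 8.33% and 4.84% to 9.56%, above 3.94% and 4.19%. Mal ran from 15.2% to 24.4% and from 9.56% to 16.3% there, above its 10.4% and 8.31% in mature-like nuclei. Classes with fewer such UMIs did not all follow: Cnp was 1.39% (0.381 to 3.53) in pericyte or smooth muscle-like nuclei of the control, Cldn11 1.28% (0.0325 to 6.94) in choroid plexus-like nuclei of the library labelled knockdown, and Ugt8a 8.49% (3.96 to 15.5) in Cajal-Retzius-like nuclei of that library.

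**Figure D4:**
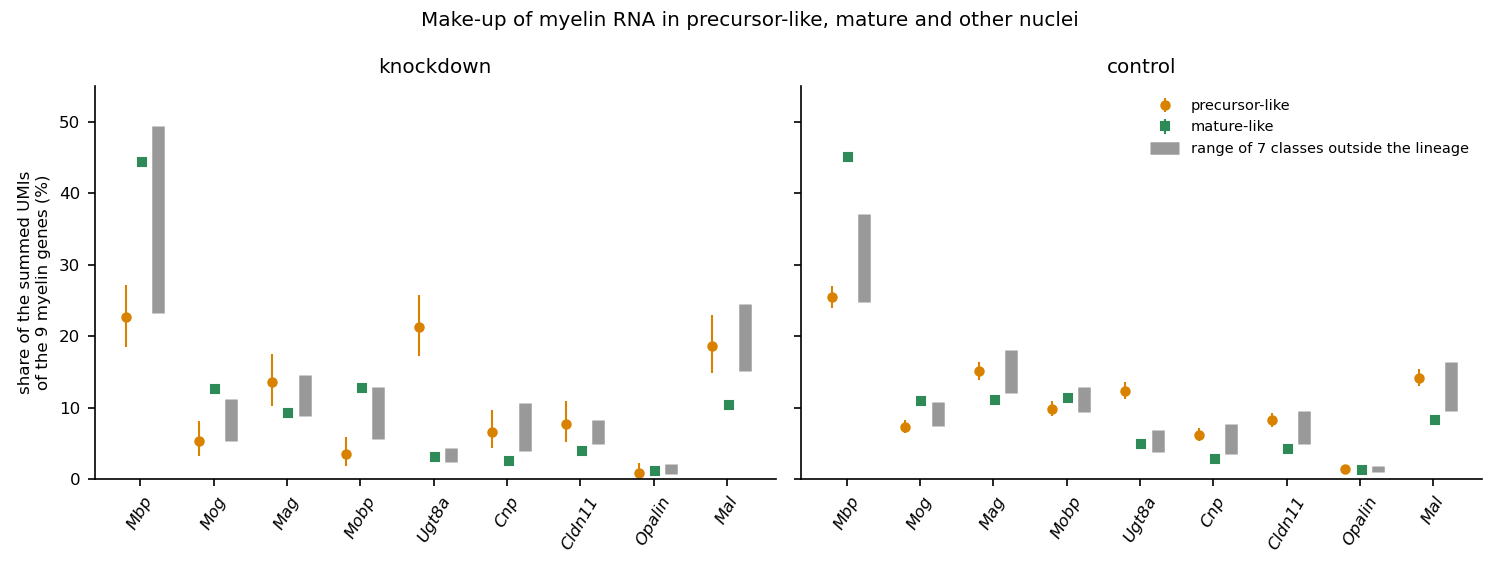
Share of each gene in the summed UMIs of the 9 myelin genes (percent) in precursor-like nuclei (orange circles) and mature-like nuclei (green squares), with the range over the 7 classes outside the lineage with at least 200 such UMIs in each library as grey bars, for the library labelled knockdown (left) and the control (right); error bars are 95% exact binomial intervals. Ugt8a in precursor-like nuclei, 21.3% and 12.4%, lies above the grey range and above mature-like nuclei in both libraries.

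Mal, which is also known from apical membranes of epithelia, had in endothelial-like nuclei a level below its 1008 and 1098 CPM in mature-like nuclei. Endothelial-like nuclei had 684 CPM of Mal (530 to 869, 67 UMIs in 45 nuclei) in the library labelled knockdown and 621 CPM (517 to 738, 127 UMIs in 98 nuclei) in the control. Of the 10 classes outside the lineage, they were the 1 in which a member was not lower in the library labelled knockdown. Over DG granule-like nuclei the log2 ratio was 4.24 (3.85 to 4.61) in the library labelled knockdown and 2.62 (2.32 to 2.91) in the control. Mal was 56.8% of the summed UMIs of the 9 genes in endothelial-like nuclei of the library labelled knockdown and 26.7% in the control. The other classes outside the lineage reached at most 164 CPM of Mal in the library labelled knockdown and 347 CPM in the control, both in pericyte or smooth muscle-like nuclei.

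Among mature-like clusters the members did not vary alike. With the libraries centred, Opalin had its highest level in the cluster numbered 1, with 192.5 CPM in the library labelled knockdown and 287 CPM in the control. Its lowest was 60.7 CPM in cluster 5 of the library labelled knockdown and 76.7 CPM in cluster 2 of the control. That is a 3.17-fold (2.30 to 4.44) and a 3.75-fold (3.29 to 4.29) difference. Mal was also highest in cluster 1, at 1198 and 1460 CPM, and lowest in cluster 5, at 748 and 898 CPM (1.60-fold and 1.63-fold). Ugt8a ran differently, highest in cluster 5 at 364 and 774 CPM and lowest in cluster 2 at 238 and 421 CPM (1.53-fold and 1.84-fold). Mag varied by 1.14-fold and 1.17-fold and Mobp by 1.12-fold and 1.17-fold.

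Clusters that differed in myelin genes also differed in markers of mature cells. Il33, a nuclear cytokine of mature oligodendrocytes, had 401 CPM in cluster 1 of the library labelled knockdown and 684 CPM in the control, and 138 and 108 CPM in cluster 2. Apod, a lipid carrier of mature oligodendrocytes, had 3497 and 3346 CPM in cluster 2, and Enpp6, a marker of younger oligodendrocytes, 215 and 281 CPM in cluster 5. Members apart by 1.5-fold between clusters were 2 of 8 measured in the library labelled knockdown (17.6% of all genes were), Mal and Ugt8a, with Opalin under 50 UMIs in a cluster and not counted. In the control they were 4 of 9 (26.2%), Opalin, Ugt8a, Mal and Cnp. Without centring, the 4 mature-like clusters of the control gave the same count, 4 of 9 (22.9%), and the library labelled knockdown had 1 cluster.

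**Figure D5:**
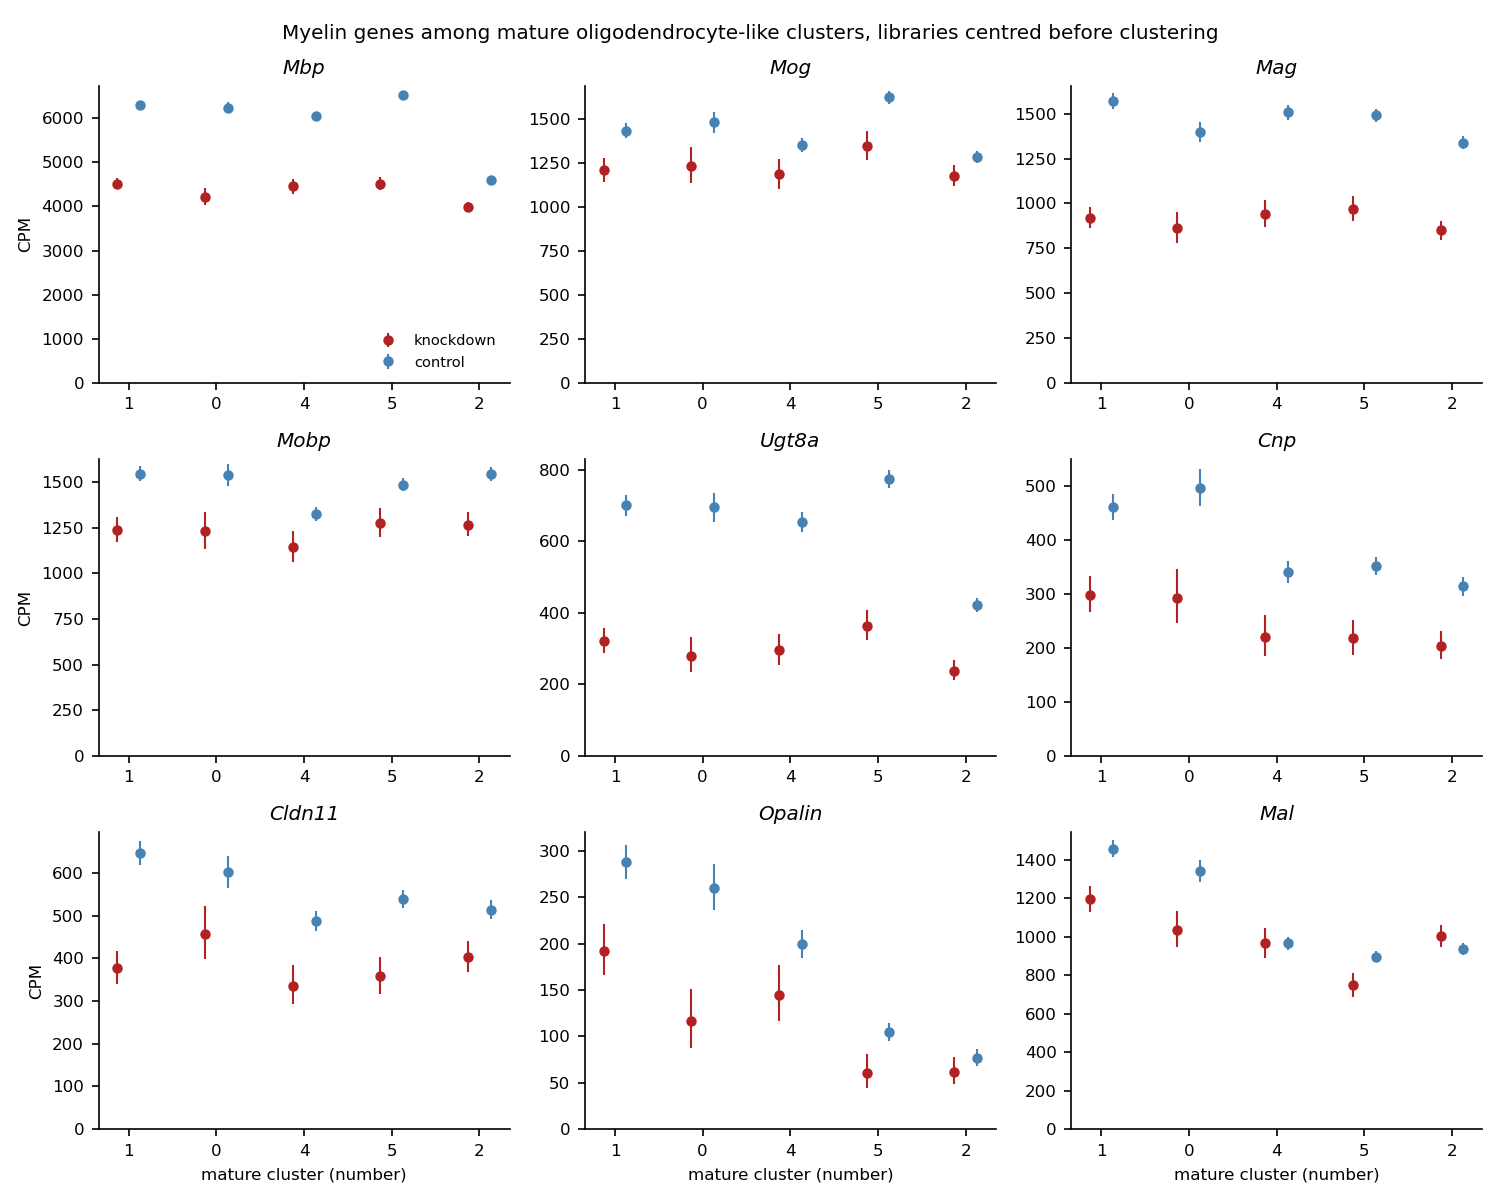
Level of each myelin gene (CPM, axes from 0) in 5 clusters of mature-like nuclei, libraries centred before clustering, for the library labelled knockdown (red) and the control (blue); clusters are ordered by the level of Opalin in the control and bars are 95% Poisson counting intervals. The highest and lowest clusters differ by 3.17-fold and 3.75-fold for Opalin and by 1.12-fold and 1.17-fold for Mobp, and Ugt8a and Mbp are lowest in cluster 2 in both libraries.

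Other myelin genes were described beside the members. Of 22 genes of the myelin and oligodendrocyte membrane measured, 17 were higher and 1 lower in mature-like than in precursor-like nuclei of the library labelled knockdown (median log2 ratio 2.48), and 18 higher and 0 lower in the control (median 2.27), where 20.6% and 20.3% of all genes were higher and 21.0% and 30.1% lower. In mature-like nuclei 12 of 22 were lower in the library labelled knockdown (7.40% of all genes were) and 0 higher (25.0%), with a median of -0.64 beside -0.53 for the 9 members. Among the lowest were Cryab, a small heat shock protein, at -1.47 (139 CPM in the library labelled knockdown and 385 CPM in the control), and Plxnb3, a plexin receptor, at -1.11 (137 and 297 CPM). The highest were Cmtm5 at -0.18, Cd9 at -0.23 and Evi2a at -0.44. In newly formed-like nuclei 0 of 18 measured were higher and 4 lower (14.1% of all genes were lower), and in precursor-like nuclei 0 of 20 were higher and 11 lower (6.78%).

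Genes of myelin lipid synthesis and transcription factors of the lineage were counted in the same way. Of 20 lipid genes, 10 were higher and 0 lower in mature-like than in precursor-like nuclei of the library labelled knockdown, and 12 and 1 in the control, beside the same shares of all genes, led in both by Elovl7, a fatty acid elongase (log2 ratios 3.27 and 2.58), and Fa2h, which hydroxylates the fatty acids of galactosylceramide (2.64 and 2.45). Between the libraries, 1 of the 20 was higher (25.0% of all genes were) and 2 were lower (7.40%, so near the share of all genes) in mature-like nuclei, with a median of -0.04. Gal3st1, which turns galactosylceramide, the product of Ugt8a, into sulfatide, had 77.5 CPM in the library labelled knockdown and 129 CPM in the control (-0.73). Ugcg, which makes glucosylceramide from the same precursor as Ugt8a, had 28.5 CPM and 15.1 CPM (0.92). Of 13 transcription factors measured in mature-like nuclei, 3 were higher in the library labelled knockdown, about the 25.0% of all genes, and 3 lower (7.40%), with a median of -0.36 beside 0.15 over all genes. Olig2 (-0.82) and Olig1 (-0.80) were among the lower ones, and Sox10 was at -0.16.

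Genes whose level ran most like the mean of the 9 members over 13 classes were ranked among 9462 genes by the lower of their 2 Pearson correlations of log2(CPM + 5), 1 per library, as a description. Among the 10 highest were Tspan2, a tetraspanin of oligodendrocytes (r = 0.95), and Rnf220, a ubiquitin ligase (0.95). Otud7b and Itgad had 0.94, and Ermn, a cytoskeletal protein of oligodendrocytes, Arhgap23, Vmp1 and Myrf 0.93, followed by Tubb4a, a tubulin, at 0.92. Myrf had 20.5, 224 and 196 CPM along the 3 stages in the library labelled knockdown and 43.9, 233 and 275 CPM in the control, and so changed less from newly formed-like to mature-like nuclei than from precursor-like to newly formed-like nuclei. The classes share their libraries, and free RNA is shared between classes of a library. For single members the lower correlation with the mean of the 9 was highest for Mag (0.98) and lowest for Cnp (0.86) and Ugt8a (0.87).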

How the data were processed

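Each library came as a matrix of UMI counts per gene and nucleus that the authors deposited, from Cell Ranger 9.0.1 (per the file headers). The submitters' processing notes also name bcl2fastq 5.0.1, Seurat 4.1.0 and GRCm39. The members and gene lists were chosen with earlier results of these data known.

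Nuclei with at least 500 genes, 800 UMIs and under 5% mitochondrial UMIs were kept. Doublets were marked by simulated-doublet score, at the automatic threshold in the library labelled knockdown. In the control that threshold marked 0.016%, so the highest scores were taken at a rate of 0.8% per 1000 barcodes. These rules, which differed between the libraries, removed 1112 nuclei (8.28%) of the library labelled knockdown and 1366 (10.9%) of the control. Counts were scaled to 10000 per nucleus and clustered on 2000 variable genes without the members and 22 other myelin genes (30 principal components, 15 neighbours, Leiden resolution 1; Python 3.11.15, scanpy 1.11.5). Of 31 clusters, 8 stayed unnamed by the 178 markers of 21 classes, and they held 4930 nuclei (40.0%) of the library labelled knockdown and 247 (2.21%) of the control. Nuclei of the oligodendrocyte lineage were clustered again into stages.

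Sums of UMIs over the nuclei of a class were divided by the class total (CPM), with exact Poisson intervals, exact conditional binomial intervals of ratios and exact (Clopper-Pearson) intervals of shares, all at 95% and covering counting error only. A gene was measured with 50 UMIs over the 2 sums compared. All calls are folds of 1.5, computed for all genes with 0.5 UMI added, and no test was run, since each group is 1 library. TMM factors came from edgeR 4.0.16 (R 4.3.3), used for scaling only. Interval coverage and calls were tested on simulated counts. The genes named were all 9 members, the 10 with the most similar profile, and, from each list, the 3 highest and 3 lowest of the comparison, with 1 gene not reported here. Genes named outside this rule, such as Sox10 and the genes of clusters, were chosen after their values were seen or as markers.

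Alternatives changed the filters, doublet removal, resolution, genes used, centring, scaling, thinning, sex of the nuclei and the fold.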

Additional observations from a re-analysis of the deposited data

Results flagged for a closer look

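For 4 genes the ratio of the library labelled knockdown to the control had opposite signs in newly formed-like and mature-like nuclei, with counting intervals that did not reach 0 in either. Mbp had a log2 ratio of 0.18 in newly formed-like and -0.47 in mature-like nuclei. Mog had 0.51 and -0.23, Mobp 0.28 and -0.28, and Mal 0.77 and -0.12. With 1 library per group the difference between the stages was not tested. The newly formed-like class was 40.0% earlier nuclei in the library labelled knockdown and 57.9% in the control. Among later newly formed-like nuclei alone, Mal was at 0.59 and Mog at 0.23, while Mobp was at -0.02 and Mbp at -0.19. The part of the make-up of the class in the 4 ratios was not tested beyond these values.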

How the results depend on the processing

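All 9 members were higher in mature-like than in precursor-like nuclei in both libraries under the 14 alternatives run for that count. For newly formed over precursor all 9 were too, except with the looser filter, where 7 were higher in the library labelled knockdown and 8 in the control. Of 1153 values of single genes under 17 alternatives, 802 stayed within their counting interval, 345 moved outside it, and 6 that had passed 1.5-fold changed sign. Values within 1.5-fold that changed sign were counted among the 802 and 345. Mog, Mobp and Mal in mature-like nuclei, library labelled knockdown over control, were such values. They reached 0.21, 0.16 and 0.32, from -0.23, -0.28 and -0.12. The cause was not tested. For mature over newly formed in the library labelled knockdown, 6 members were higher with the looser filter and 2 at resolution 0.5. Lower were 0 with the looser filter, 1 at resolution 0.5, 8 in male nuclei, 6 in female nuclei and 1 at a fold of 2, and Opalin was at 2.10 with the looser filter and 0.33 at resolution 0.5. In the control, 9 were higher with the looser filter, 4 with doublets kept, 1 by mean CPM over nuclei, and 0 with the stricter filter, at resolution 2, with the libraries centred, in male nuclei or at a fold of 2. Lower was 1 with the stricter filter, at resolution 2, with the members left in, with centring and in male nuclei, and Mal was at -0.22 with centring. For the library labelled knockdown over the control, the members lower in mature-like nuclei were 2 after subtracting DG granule levels and 1 each in male nuclei, at a fold of 2, with the free RNA share removed and scaled to the 9 members. Higher in newly formed-like nuclei were 0 with the stricter filter, at resolution 0.5, with centring, in male nuclei and at a fold of 2, 2 with doublets kept, by mean CPM and after the subtraction, and 3 in female nuclei. Lower there were 1 with the looser filter and 2 at resolution 0.5, and Mal was at -0.49 and -1.44 under those. In precursor-like nuclei 5 were lower after the subtraction, with Opalin at 0.26. The summed ratio in DG granule-like nuclei was -1.79 with the looser filter, -2.01 with centring and -1.70 in female nuclei. Control members apart between mature-like clusters were 2 at resolution 0.5 and 1 at a fold of 2. Weighting the clusters of mature-like nuclei equally without centring was not run, because no such cluster held 50 nuclei of each library. No paired analysis was possible because each group is 1 library and no test was run. Depth limits Opalin and Mobp most, with 3 and 13 UMIs in precursor-like nuclei of the library labelled knockdown.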
